A study of Drosophila melanogaster with 8 samples.

Results

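Hemocytes, the blood cells of the fly, made up cluster 7 of a single-nucleus RNA sequencing atlas of whole *Drosophila melanogaster* larvae. Its members were the 1374 nuclei, of 30819 in all, that the authors' deposited cluster table names hemocytes, out of 28 clusters. The atlas came from 8 libraries that the labels give as 1 condition, although the study's library table names some with T and others with W. The labels were followed. Each was made from a pool of 16 whole larvae (8 males and 8 females) of the *w1118* strain, a white-eyed laboratory strain, taken as wandering larvae of the third instar 5 days after egg deposition. All comparisons were therefore made between nuclei of the same libraries. They set hemocytes against all other nuclei, against the fat body clusters 4, 13 and 15 (3429 nuclei) and against cluster 12 (967 nuclei), the myoblasts that will form adult muscle. Each pool was 1 sample, and values for hemocytes of 1 library came from the same larvae as the values for its other nuclei.

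Most larval hemocytes of *Drosophila* are plasmatocytes, macrophage-like cells that engulf bacteria and dying cells, lay down basement membrane and send signals to other tissues. Crystal cells carry the prophenoloxidases that melanize wounds, and lamellocytes, which encapsulate parasitoid eggs, are rare in healthy larvae. Some hemocytes circulate or rest under the cuticle, and others form in the lymph gland, an organ beside the heart. GATA factors such as Serpent set their fate, and the receptor Pvr keeps them alive and moving.

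In each library 103 to 216 hemocyte nuclei were recovered, or 4.56% ± 1.20 of nuclei (SD, n = 8 libraries). The share was lowest in library 8, at 3.33% (exact 95% interval 2.73 to 4.03%, counting error only), and highest in library 3, at 6.61% (5.78 to 7.51%). Hemocyte sums held 132377 to 329173 corrected UMIs (molecules counted by their unique identifiers), against 3509990 to 6294310 for the other nuclei. The median nucleus was deeper in hemocytes, with 1211 ± 198 UMIs, than among the other nuclei, with 947 ± 86.7 (SD, n = 8 libraries each). The difference of 264 ± 149 UMIs was positive in 8 of 8 libraries (exact permutation test paired by library, two-sided, p = 0.0078125, the smallest value that 8 pairs allow). No library stood apart in its share or depth of hemocytes. Barcodes that recur between libraries were carried by 4 hemocyte nuclei (0.291%) and by 7.58% of the nuclei outside the cluster.

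The markers were at their highest in the cluster named for them. *Hml* (hemolectin, a clotting protein), *NimC1* and *NimB1* (Nimrod proteins, the first a phagocytosis receptor), *Pxn* (peroxidasin, a matrix enzyme), *Karl* (a lipocalin) and *lectin-28C* (a C-type lectin) each had a higher level here than in any other of the 28 clusters. Levels are given in CPM, the UMIs of a gene scaled to the total of the summed nuclei. *lectin-28C* had 498 to 1000.3 CPM in hemocytes (median 764), against 3.66 to 11.7 CPM in the other nuclei (median 4.80). *Pxn* had 1222 to 1539 CPM in hemocytes (median 1305), against 16.6 to 52.7 CPM in the other nuclei (median 30.4). *Karl* had 229 to 428 CPM in hemocytes (median 336), against 5.57 to 20.04 CPM in the other nuclei (median 8.39). For all 6 markers every hemocyte value lay above every value of the other nuclei, as for 742 (10.1%) of the 7369 genes with enough counts. The log2 fold changes ran from 3.77 ± 0.36 for *Hml* to 7.62 ± 0.30 for *NimB1* (standard error of the fit, 8 libraries). *Hml* was the least particular of the 6, because nuclei of fat body cluster 15 held it at 267 CPM against 365 CPM for all hemocytes together.

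**Figure D1:**
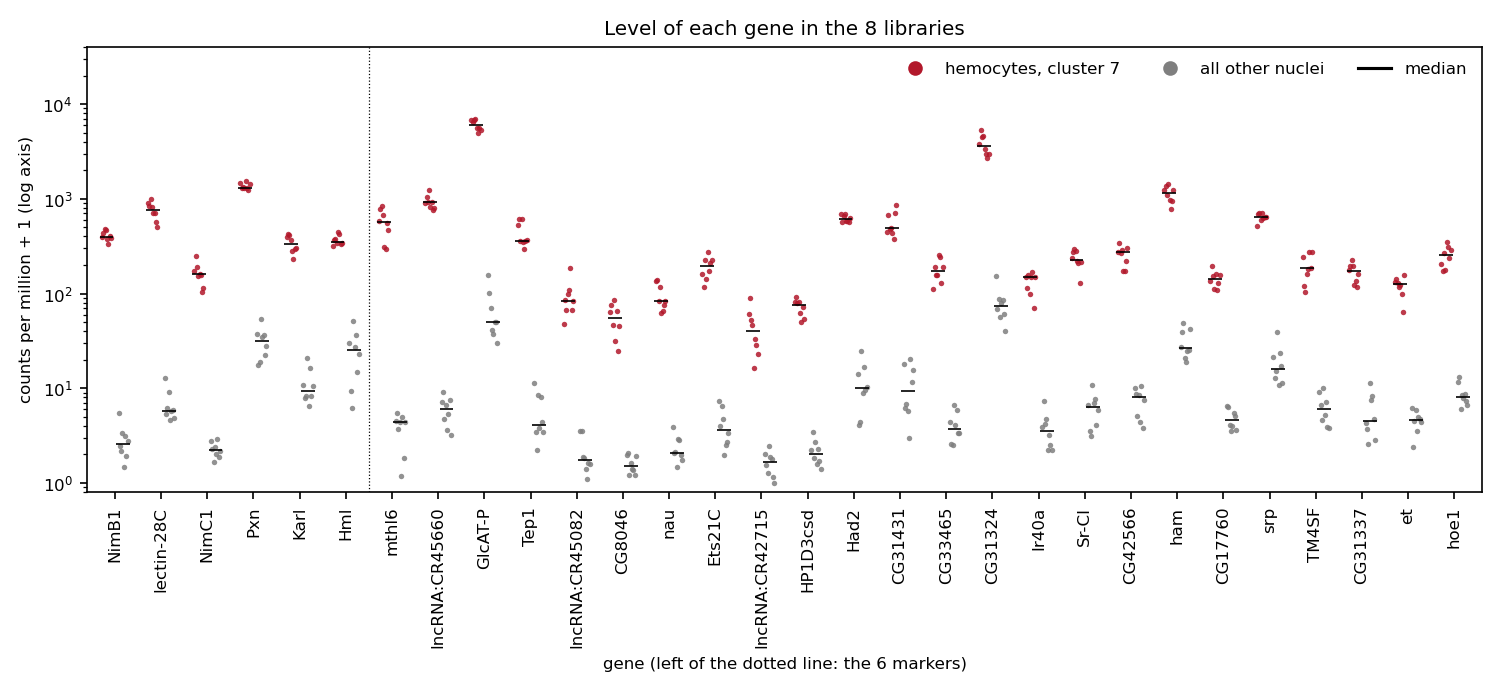
Level of the 6 markers and of the 24 further genes with the largest fold changes, in CPM plus 1 on a log axis, in the 8 libraries. Each point is the sum over the hemocytes (left, red) or over all other nuclei (right, grey) of 1 library and the bars are medians. In each of the 30 genes the lowest hemocyte library lies above the highest library of the other nuclei, as in 10.1% of all tested genes. The 24 were chosen for large fold changes and for being higher in at least 7 libraries. *GlcAT-P* has 4897 to 6908 CPM in hemocytes.

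The markers were far from found in each nucleus. None of the 6 was found in 184 hemocyte nuclei (13.4%), 1 in 312, 2 in 368, 3 in 233, 4 in 177, 5 in 92 and all 6 in 8. Depth went with this number, with a median of 1024 UMIs in nuclei with no marker and 1941 UMIs in those with all 6. At least 1 marker was found in 86.7% ± 2.54 of hemocyte nuclei per library, against 8.27% ± 2.56 of the other nuclei (SD, n = 8 libraries each). When corrected counts were rounded and each nucleus was thinned to 500 UMIs, the shares were 70.5% ± 4.59 of hemocytes and 2.57% ± 1.12 of the other nuclei, with 35 hemocytes and 4574 other nuclei too shallow to be thinned. The nuclei without a marker still held other genes of the cluster. *GlcAT-P* was found in 72.3% of them and in 94.2% of the hemocytes with a marker. The shares were nearer to each other for *CG31324* (78.8% and 83.4%), *zfh1* (74.5% and 73.9%) and *srp* (48.9% and 50.1%). At least 1 of *GlcAT-P*, *CG31324*, *zfh1* and *Pvr*, genes chosen after their values were seen, was found in 97.8% of the nuclei without a marker, against 22.7% of all nuclei outside the cluster.

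**Figure D2:**
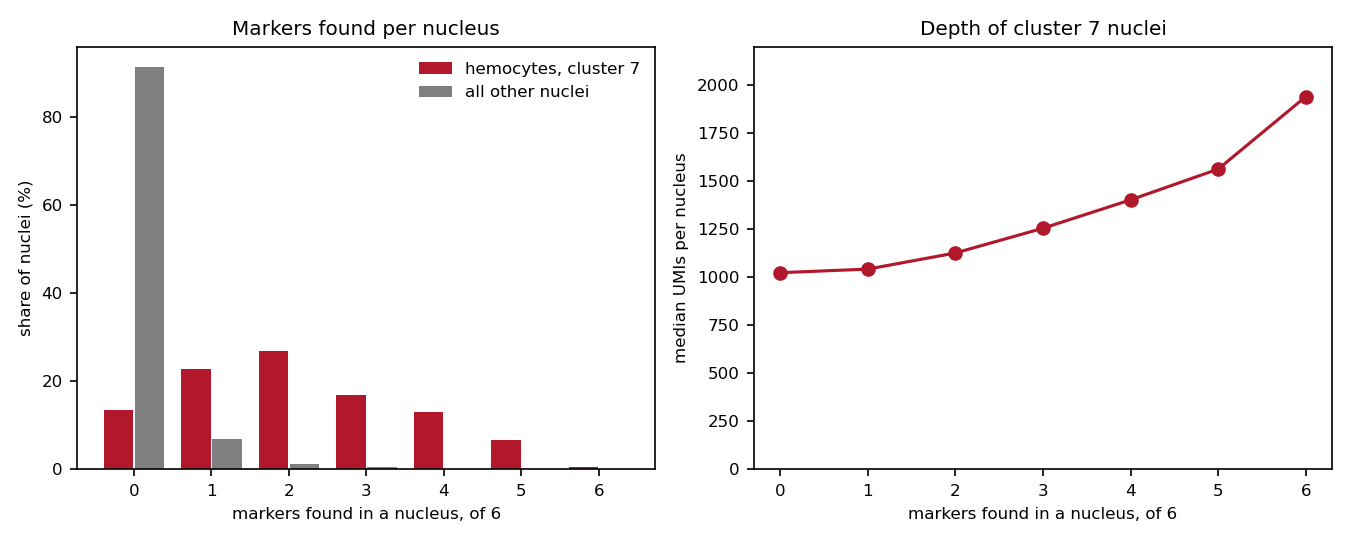
Left, share of nuclei in percent by the number of the 6 markers found in the nucleus, for hemocytes (red, left bars) and all other nuclei (grey, right bars). Right, median UMIs of the hemocyte nuclei with each number of markers. Of the hemocytes 13.4% hold none of the 6, against 91.4% of the other nuclei, and the median depth of hemocytes is 1024 UMIs with no marker and 1941 UMIs with all 6.

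Hemocyte markers also occurred outside the cluster. At least 3 of the 6 were found in 510 hemocyte nuclei (37.1%) and in 166 nuclei of other clusters. Of these 166, 57 lay in fat body cluster 15 (7.57% of its nuclei), 33 in cluster 16 (5.11%) and 29 in cluster 9 (2.66%), both named mixed by the authors, and 13 in neuron cluster 20 (2.54%). Whether these nuclei are hemocytes, doublets or nuclei with free hemocyte RNA was not tested.

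Sums of hemocytes and of all other nuclei were compared over the 8 libraries for 7369 genes with enough counts. Since the clusters were made from the same counts, the calls below describe the cluster and are not evidence that it differs, and p-values of single genes are not given. With limits of 0.54 on the log2 fold change and 0.05 on the adjusted p of edgeR, 1434 genes were higher in hemocytes (19.5% of those tested) and 2384 were lower (32.4%). The median log2 fold change of all tested genes was -0.24, so that 0 on this scale is somewhat above the middle of the genes. It was -0.43 with the size factors of DESeq2, which gave 1069 higher and 2766 lower genes, and -0.09 with total counts alone. Of the higher genes 436 had their highest level of the 28 clusters in hemocytes, as did 438 (5.94%) of all tested genes. More than 50% of all UMIs of a gene came from hemocytes for 46 genes, although the cluster held 4.69% of all UMIs. For 742 tested genes (10.1%) the lowest hemocyte library lay above the highest library of the other nuclei. Genes named below for large fold changes were picked from the same values, so their lack of overlap only describes them.

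Beyond the markers, the genes with the largest fold changes were mostly not classical hemocyte genes. *mthl6*, a member of the Methuselah-like family of G protein-coupled receptors on chromosome 3L (7485967 to 7487918, plus strand, BDGP6), had 291 to 828 CPM in hemocytes (median 569), against 0.181 to 4.44 CPM in the other nuclei (median 3.43). Its log2 fold change was 7.50 ± 0.40, and 91.6% of all its UMIs lay in this cluster. *GlcAT-P*, a glucuronyltransferase that builds glycans (3L, 11176954 to 11197536, minus strand), had 4897 to 6908 CPM in hemocytes (median 6057), against 28.7 to 156 CPM in the other nuclei (median 49.5), with a log2 fold change of 6.39 ± 0.32. Both genes separated the groups without overlap in the 8 libraries. *GlcAT-P* was found in 91.3% of hemocyte nuclei, against 4.98% of the other nuclei. At a common depth of 500 UMIs the shares were 80.4% of hemocytes and 1.90% of the other nuclei. The next highest cluster for *GlcAT-P* was trachea, at 295 CPM against 6175 CPM for all hemocytes together.

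*CG31324*, which the RefSeq table names *Cipc* (3R, 26106868 to 26130674, plus strand), had 2702 to 5353 CPM in hemocytes (median 3585), against 39.5 to 151 CPM in the other nuclei (median 72.7). It was found in 82.8% of hemocyte nuclei and 6.09% of the others, and its log2 fold change was 5.45 ± 0.25. The long noncoding RNA *lncRNA:CR45660* had 754 to 1247 CPM in hemocytes (median 919), against 2.20 to 8.12 CPM in the other nuclei (median 5.00). This gene (3L, 2629834 to 2630693, minus strand) overlaps the start of *Pxn* (2601455 to 2630064) on the same strand, so reads of the pair may have been assigned to either. The other noncoding RNAs of the 24 were *lncRNA:CR45082* with 46.1 to 184 CPM and *lncRNA:CR42715* with 15.4 to 87.8 CPM in hemocytes, against at most 2.57 and 1.48 CPM in the other nuclei.

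Several of the 24 encode transcription factors. *srp* (serpent), the GATA factor of the blood lineage, had 520 to 705 CPM in hemocytes (median 637), against 9.69 to 38.5 CPM in the other nuclei (median 15.1), with a log2 fold change of 5.01 ± 0.25. *ham* (hamlet), a PRDM-type factor known from neurons, had 787 to 1439 CPM in hemocytes (median 1162), against 17.7 to 48.4 CPM in the other nuclei (median 25.4). Neuron cluster 17 came close, with 664 CPM of *ham* against 1140 CPM for all hemocytes together. *Ets21C*, an ETS factor induced by stress signalling, had 117 to 277 CPM in hemocytes (median 192), against 0.971 to 6.25 CPM in the other nuclei (median 2.65). *nau* (nautilus), the fly relative of the vertebrate muscle factor MyoD, had 61.5 to 138 CPM in hemocytes (median 82.1), against 0.484 to 2.89 CPM in the other nuclei (median 1.09). The muscle cluster 23 held *nau* at 36.4 CPM and hemocytes as a whole at 95.5 CPM, although all 5 structural muscle genes of a marker list (*Mhc*, *sals*, *up*, *bt* and *Mlp60A*) were lower in hemocytes, or 3 of 5 without the mixed clusters. None of the 4 factors overlapped between the groups.

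Surface proteins and receptors formed another part of the 24. *Sr-CI*, a scavenger receptor that binds bacteria, had 127 to 293 CPM in hemocytes (median 227), against 2.14 to 9.77 CPM in the other nuclei (median 5.30). *et* (eye transformer), a short receptor that dampens JAK/STAT signalling, had 62.3 to 158 CPM in hemocytes (median 126), against 1.39 to 5.23 CPM in the other nuclei (median 3.64). *TM4SF*, a tetraspanin, had 103 to 274 CPM in hemocytes (median 183), against 2.83 to 8.94 CPM in the other nuclei (median 5.00). *Ir40a*, an ionotropic receptor known from humidity sensing in the antenna, had 70.1 to 167 CPM in hemocytes (median 147), against 1.21 to 6.41 CPM in the other nuclei (median 2.52), and was found in 8.66% of hemocyte nuclei. The log2 fold changes of these 4 genes were 5.30 ± 0.30, 4.87 ± 0.25, 4.99 ± 0.29 and 5.43 ± 0.30 in the order named, and their groups did not overlap.

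The remaining genes of the 24 included *Tep1*, a complement-like thioester protein, with 295 to 615 CPM in hemocytes (median 359), against 1.21 to 10.3 CPM in the other nuclei (median 3.08). *Had2*, a dehydrogenase gene by name, had 561 to 698 CPM in hemocytes (median 609), against 3.14 to 23.6 CPM in the other nuclei (median 8.97). Its relative *Had1*, chosen after its values were seen, went the other way, with at most 17.7 CPM in hemocytes and 46.6 to 356 CPM in the other nuclei (log2 fold change -5.60 ± 0.63, or -6.37 without library 2). *Had1* was lowest of the 28 clusters in hemocytes, and *Had2* was highest. *CG31431*, *CG33465*, *CG42566*, *CG17760*, *CG31337*, *CG8046*, *HP1D3csd* and *hoe1* completed the set, with median levels of 54.4 (*CG8046*) to 485 CPM (*CG31431*) in hemocytes and 0.529 (*CG8046*) to 8.27 CPM (*CG31431*) in the other nuclei. In all 24 genes hemocytes were higher in 8 of 8 libraries, where at least 7 had been required in choosing them.

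**Figure D3:**
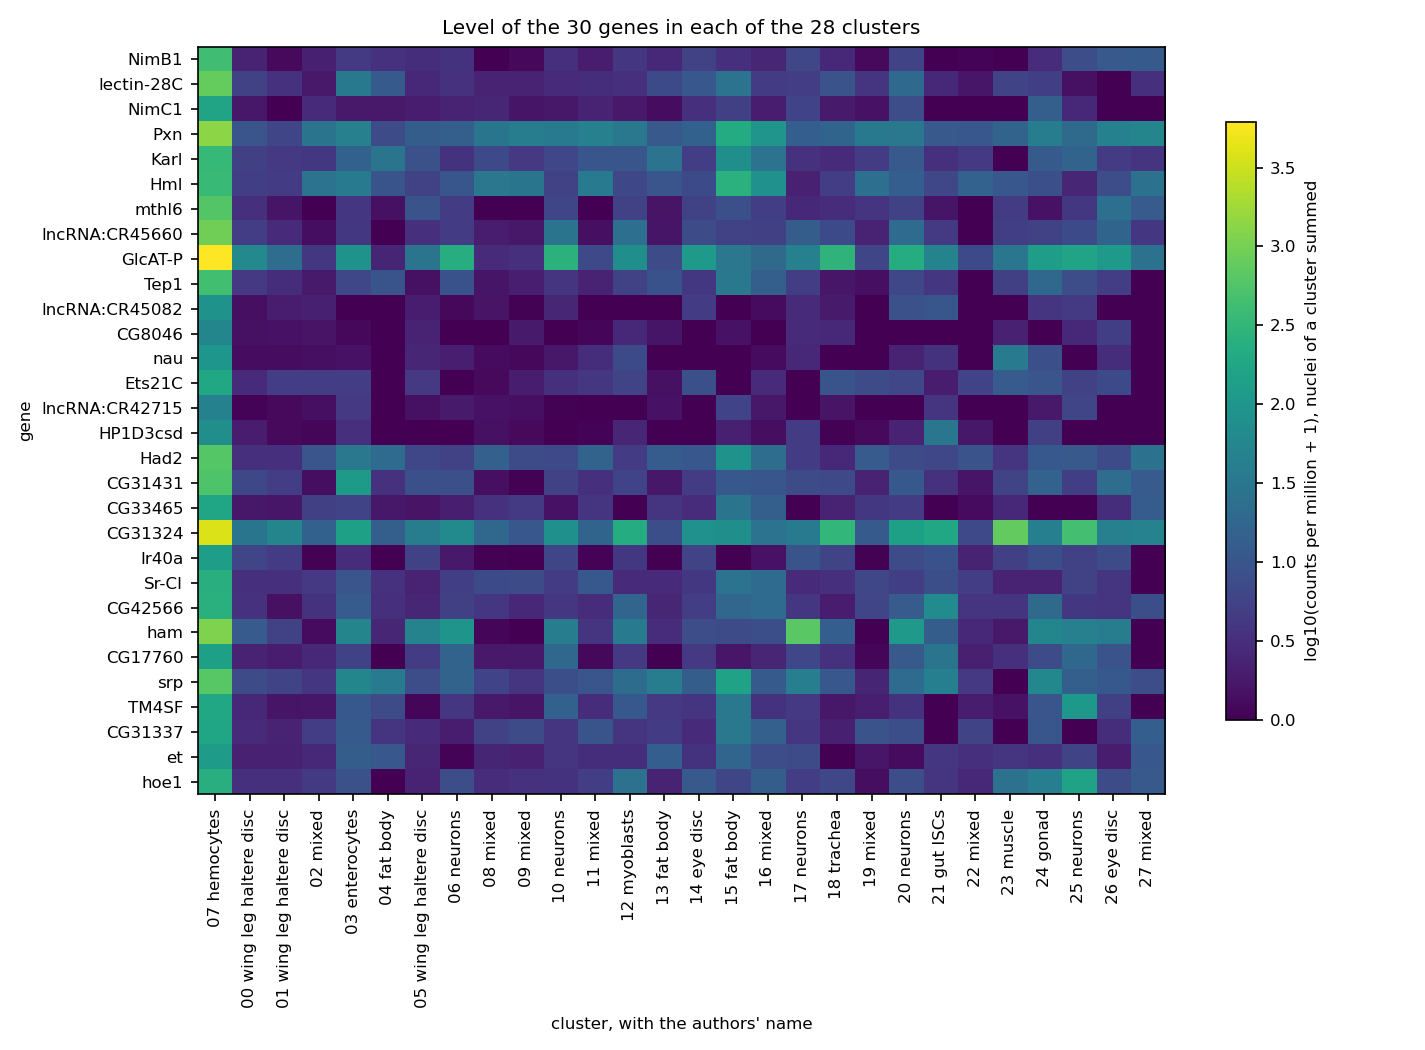
Level of the 6 markers (top rows) and the 24 further genes in each of the 28 clusters, as log10 of CPM plus 1 over the summed nuclei of a cluster, hemocytes in the left column. Each row is highest in hemocytes, and the second highest values include *ham* in neuron cluster 17 (664 CPM), *CG31324* in muscle cluster 23 (768 CPM) and *Hml* in fat body cluster 15 (267 CPM).

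Fat body also makes immune and matrix proteins, and hemocytes were set against it next. Library 2 held too few fat body nuclei to be used, so 7 libraries entered. Of 2916 genes tested, 1393 (47.8%) were higher in hemocytes than in the fat body clusters and 1243 (42.6%) were lower, at a median log2 fold change of 0.37 over all genes. The log2 fold change of *Hml* was 0.96 ± 0.45 and that of *Karl* 1.76 ± 0.22, whereas *GlcAT-P* reached 7.81 ± 0.41, *lncRNA:CR45660* 7.63 ± 0.44 and *Ir40a* 7.95 ± 0.52. *Ir40a* was at 0 CPM in fat body clusters 4, 13 and 15, so the size of its fold is not measured. *lncRNA:CR45660* was at 0, 0.637 and 4.62 CPM there, so its fold also rests on few counts. *srp* was 1.95 ± 0.26 above fat body. The part that nuclei of cluster 15 with hemocyte markers had in these folds was not tested. Against myoblasts, 487 of 2239 genes (21.8%) were higher in hemocytes and 464 (20.7%) were lower. *GlcAT-P* was 6.30 ± 0.36 above myoblasts and *lectin-28C* 7.90 ± 0.33, but *zfh1*, a zinc finger factor of mesodermal cells, was only 0.36 ± 0.08 above them. All values are log2 fold changes with the standard error of the fit.

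**Figure D4:**
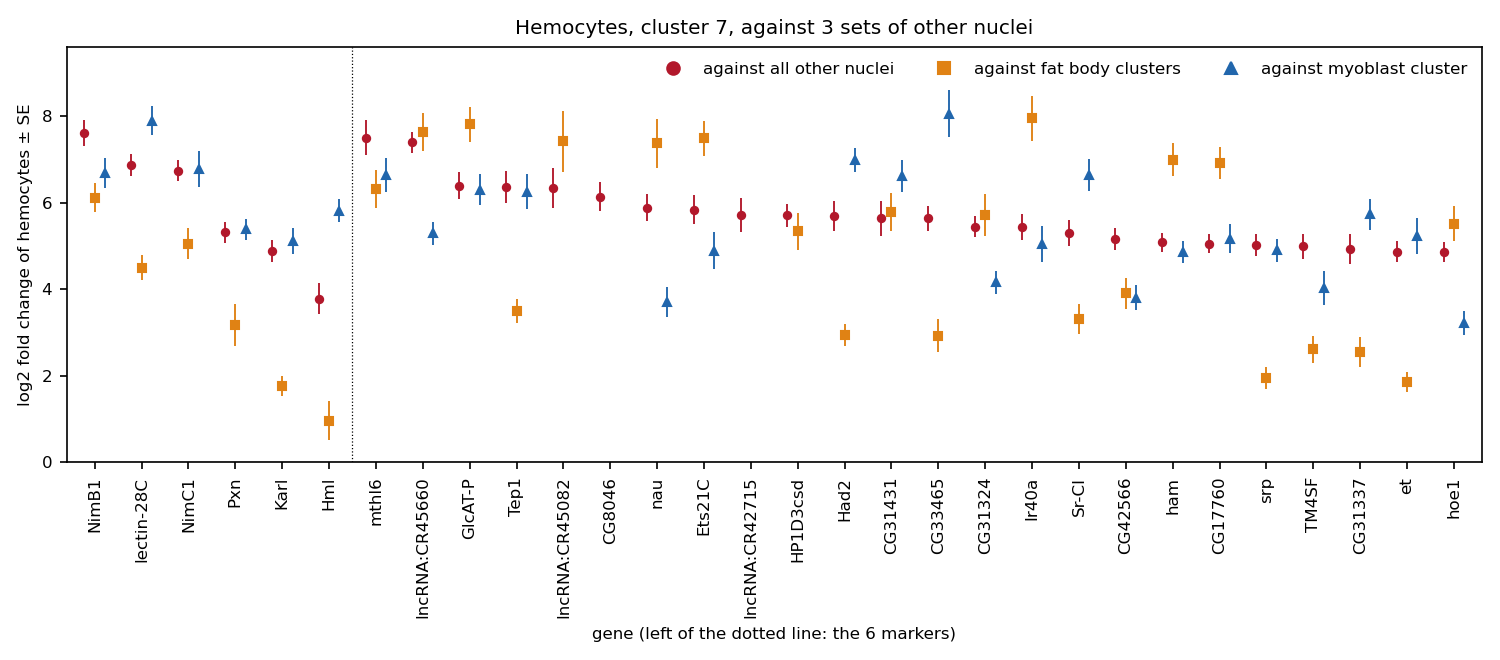
Log2 fold change of hemocytes with its standard error for the 6 markers and the 24 further genes, against all other nuclei (circles, 8 libraries), the fat body clusters (squares, 7 libraries) and the myoblast cluster (triangles, 8 libraries). A missing symbol marks a gene with too few counts for that comparison. *Hml* lies at 3.77, 0.96 and 5.81 in this order, and *GlcAT-P* at 6.39, 7.81 and 6.30.

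Receptors for phagocytosis and scavenging were mostly higher in hemocytes. Of 22 listed genes 17 could be tested. Of these, 11 were higher (64.7%, against 19.5% of all tested genes), 4 lower (23.5%, against 32.4%) and 2 neither. The median log2 fold change was 2.51, against -0.24 for all genes. At the top stood *NimB1* (7.62 ± 0.30) and *NimC1* (6.74 ± 0.25), markers of the cluster that count among the higher genes. *drpr* (draper), the receptor for dying cells, had 599 to 808 CPM in hemocytes (median 698), against 71.8 to 144 CPM in the other nuclei (median 96.2), and *crq* (croquemort), a CD36-type receptor, had 312 to 546 CPM against 39.9 to 70.7 CPM. Neither gene overlapped between the groups. The Nimrod family was split, for *NimB3* was lower (-2.97 ± 0.51), as were *NimB2*, *NimC2* and the CD36-type gene *emp* (-2.57 ± 0.39). *NimB3* had at most 12.2 CPM in hemocytes and its highest level in fat body cluster 4. *NimA* and *NimC4* had no UMI in hemocytes.

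Basement membrane genes were mostly higher too, with 9 of 13 higher (69.2%, against 19.5% of all tested genes), the marker *Pxn* among them. A further 1 was lower (7.69%, against 32.4%) and 3 were neither, and the list median was 1.82. *Pxn* led the list, followed by *Col4a1*, a collagen IV chain, which had 246 to 395 CPM in hemocytes (median 310), against 27.9 to 60.8 CPM in the other nuclei (median 34.0; log2 fold change 2.82 ± 0.19). Against fat body the log2 fold changes of the collagen genes were 0.08 ± 0.24 for *Col4a1* and 0.12 ± 0.32 for *vkg*, the other collagen IV chain. The laminin chains *LanA*, *LanB1* and *LanB2* were among the higher genes. *Ndg* (nidogen) was the lower gene (-2.52 ± 0.84, or -1.89 without library 5, and not tested without the mixed clusters), with at most 5.98 CPM in hemocytes. *trol* (perlecan) differed by 0.04 ± 0.13 (-0.15 with the size factors of DESeq2 and -0.32 without the mixed clusters), with 449 to 648 CPM in hemocytes and 317 to 632 CPM in the other nuclei, and its highest level was in myoblasts (4655 CPM).

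Genes of clotting and melanization did not share a direction, with 3 of 10 tested genes higher, 4 lower and 3 neither (median -0.18), against 19.5% higher and 32.4% lower among all tested genes. The marker *Hml*, counted among the higher genes, and the protease *MP1* (0.97 ± 0.23) were at the top. The clot protein *fon* (fondue) had 4.82 to 47.1 CPM in hemocytes (median 21.4), against 23.2 to 378 CPM in the other nuclei (median 236; -3.54 ± 0.49), and the protease *Sp7* was also lower (-3.50 ± 0.67). Of the thioester proteins, 3 of 5 were higher, with *Tep1* (6.36 ± 0.36) and *Tep4* (1.52 ± 0.26) at the top and *Tep3* (-3.93 ± 0.56) at the bottom. *Tep2* differed by -0.53 ± 0.29 and was called lower with the size factors of DESeq2 (-0.73). *Tep4* had 86.5 to 180 CPM in hemocytes and did not overlap with the other nuclei at 21.0 to 66.8 CPM.

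No antimicrobial peptide gene was called higher. Of 14 listed, 13 were in the matrix, of which 9 had too few counts to be tested and 3 had no UMI in hemocytes. For 1 of the 13, hemocytes were the highest of the 28 clusters. Of the 4 tested, *Drs* (-4.10 ± 0.59), *Dro* (-4.07 ± 0.87) and *AttC* (-3.05 ± 0.83) were lower (75%, against 32.4% of all tested genes). *DptA* differed by -2.14 ± 1.16 and was called lower with library as a replicate block (-1.91). Without the mixed clusters 2 genes could be tested, of which 1 was lower. *Drs* (drosomycin) had 1.36 to 81.4 CPM in hemocytes (median 19.5), against 19.0 to 695 CPM in the other nuclei (median 410), and its top cluster was fat body cluster 13 (4688 CPM). The groups overlapped for *Drs*, which was at -4.72 without library 3.

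The Toll and Imd pathways, which turn on immune genes, had members on both sides. Of 23 tested genes 12 were higher (52.2%, against 19.5% of all tested genes), 5 lower (21.7%, against 32.4%) and 6 neither (median 0.71). Without the mixed clusters 3 of 21 were lower. The cytokine gene *spz* (spätzle), the ligand of Toll, had 46.6 to 154 CPM in hemocytes (median 120), against 6.83 to 15.9 CPM in the other nuclei (median 9.16; 3.36 ± 0.24). *Dif*, an NF-κB factor, had 125 to 255 CPM in hemocytes (median 206), against 12.2 to 61.9 CPM in the other nuclei (median 18.6; 3.02 ± 0.29). Neither overlapped. The receptors *Tl* (1.98 ± 0.18) and *PGRP-LC* (2.49 ± 0.21) and the factor *dl* (1.79 ± 0.19) were higher too. The 5 lower genes were *GNBP3* (-3.38 ± 0.56, or -4.23 without library 3), *PGRP-SD* (-2.82 ± 0.67), *grass*, *PGRP-SA* and *GNBP1*. *GNBP3* had at most 21.8 CPM in hemocytes, against 14.9 to 90.7 CPM in the other nuclei, and its top cluster was fat body cluster 13.

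Transcription factors of blood cells were higher for 6 of 11 tested genes (54.5%, against 19.5% of all tested genes). They were lower for 2 (18.2%, against 32.4%) and neither for 3 (median 1.26). After *srp* came *pnr* (pannier), a second GATA factor, with 626 to 1145 CPM in hemocytes (median 856), against 17.5 to 48.5 CPM in the other nuclei (median 32.1; 4.70 ± 0.19). *zfh1* had 1640 to 2018 CPM in hemocytes (median 1736), against 60.6 to 153 CPM in the other nuclei (median 93.3; 4.03 ± 0.16), and *ush* (u-shaped), the GATA partner, had 1064 to 1688 CPM against 77.3 to 149 CPM (3.36 ± 0.17). These 3 genes did not overlap between the groups, as was so for 10.1% of all tested genes. *klu* (-2.22 ± 0.31) and *jumu* (-0.77 ± 0.18) were the lower genes. *gcm2* had no UMI in hemocytes.

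Among 18 tested signalling genes 4 were higher, 9 lower and 5 neither (median -0.91). The share of higher genes (22.2%) was near that of all tested genes (19.5%). The share of lower genes was 50%, against 32.4% of all tested genes. With the size factors of DESeq2, 11 of 18 were lower, against 37.5% of all tested genes. Without the mixed clusters 2 of 15 were higher and 9 lower, against 18.9% and 27.3% of all genes tested there. *Pvr*, the PDGF/VEGF-type receptor of hemocytes, had 1404 to 1726 CPM in hemocytes (median 1523), against 63.8 to 144 CPM in the other nuclei (median 76.6; 4.01 ± 0.17), without overlap. Its ligand genes did not follow, for *Pvf3* was lower (-3.87 ± 0.36), *Pvf1* was lower as well and *Pvf2* was neither. *babo*, an activin-type receptor, was higher (1.06 ± 0.13). The lowest was *grnd* (grindelwald), a receptor of the TNF-type ligand, at 0 to 3.58 CPM in hemocytes and 12.2 to 24.2 CPM in the other nuclei (-5.15 ± 0.60). It was found in 4 hemocyte nuclei, and its fold rests on so few counts that it was -8.47 without library 4. Growth factor and adenosine genes were mostly lower, with 7 of 9 lower (77.8%, against 32.4% of all tested genes) and 1 higher (median -2.09). Without the mixed clusters 1 of 6 was higher and 3 were lower (median -1.14). The exception was *Adgf-A*, an adenosine deaminase, with 14.1 to 49.5 CPM in hemocytes (median 42.0), against 2.26 to 9.13 CPM in the other nuclei (median 4.13; 2.82 ± 0.30). *Adgf-A* overlaps the gene model of *Adgf-A2* on the same strand. *Idgf4* (-4.70 ± 0.45) and *Idgf5* (-3.09 ± 0.79), imaginal disc growth factors, were at the bottom.

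Lipid genes gave 3 of 10 higher, 3 lower and 4 neither (median 0.24), shares not far from those of all tested genes (19.5% higher, 32.4% lower). *GLaz*, a lipocalin, was highest (3.14 ± 0.27) with 14.9 to 78.1 CPM in hemocytes (median 41.6), against 3.01 to 8.08 CPM in the other nuclei (median 4.07). *Lsd-2*, a perilipin of lipid droplets, had 1340 to 3527 CPM in hemocytes (median 2253), against 231 to 540 CPM in the other nuclei (median 307; 2.73 ± 0.25), and was found in 72.3% of hemocyte nuclei. Neither gene overlapped between the groups. The other perilipin, *Lsd-1*, was lower (-1.96 ± 0.62), and so was *LpR1* (-1.66 ± 0.36), a lipophorin receptor. The call of *Lsd-1* was lost without library 4 (-1.39).

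Genes of the cytoskeleton and adhesion were higher for 13 of 20 (65%, against 19.5% of all tested genes). They were lower for 4 (20%, against 32.4%) and neither for 3 (median of the list 1.20), and without the mixed clusters 2 were lower. *SCAR*, an activator of branched actin, had 141 to 199 CPM in hemocytes (median 160), against 26.4 to 37.0 CPM in the other nuclei (median 31.0; 2.25 ± 0.14). *sn* (singed, fascin), which bundles actin, had 639 to 995 CPM in hemocytes (median 790), against 98.0 to 227 CPM in the other nuclei (median 155; 2.16 ± 0.15). The groups did not overlap. The integrin gene *if* (-1.56 ± 0.25) and *Fhos* (-1.22 ± 0.31) were at the bottom.

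Lysosomal genes were near the middle, with 3 of 12 higher, 3 lower and 6 neither (median -0.03), with both shares near those of all tested genes. The median was -0.23 with 1 gene higher under the size factors of DESeq2, and 0.15 with total counts. *spin* (1.40 ± 0.13) and *Vha44* (0.71 ± 0.13, not called at 0.52 with the size factors of DESeq2) were at the top, *cathD* (-1.71 ± 0.30) and *26-29-p* (-1.79 ± 0.32), both proteases, at the bottom. Without the mixed clusters among the other nuclei 7 of 12 were higher and the median was 0.70. Cell cycle genes were not higher in hemocytes in any of 14 cases, with 5 lower and 9 neither (median -0.71). The 5 lower genes (35.7%) are a share near the 32.4% of all tested genes in this fit only. With the size factors of DESeq2, 8 of 14 were lower, against 37.5% of all tested genes. Without the mixed clusters 6 of 11 were lower, against 27.3% of all genes tested there. *CycE* (0.13 ± 0.21, or -0.05 with the size factors of DESeq2) and *RnrL* (-0.23 ± 0.30) were at the top, *stg* (-1.29 ± 0.34) and *polo* (-1.97 ± 0.40) at the bottom. *polo*, a mitotic kinase, had at most 17.0 CPM in hemocytes.

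**Figure D5:**
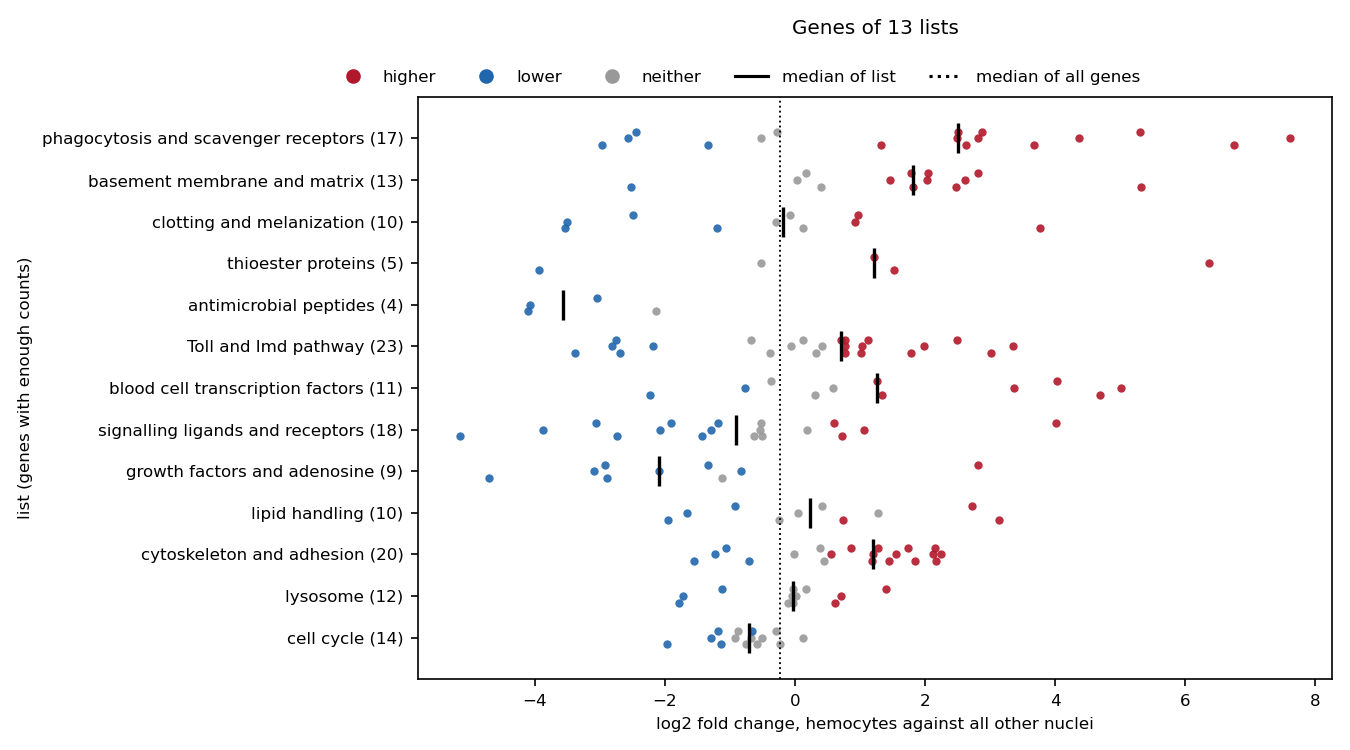
Log2 fold change of hemocytes against all other nuclei for the tested genes of 13 lists, with the number tested in parentheses. Red points are higher and blue points lower by the limits in the text, grey points are neither, black bars are list medians and the dotted line is the median of all genes (-0.24). Phagocytosis receptors (median 2.51) and matrix genes (1.82) lie furthest to the right and antimicrobial peptides furthest to the left.

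Proteins that the study found in hemolymph after labelling them in single tissues gave a further list, drawn from protein data and not from these libraries. It also holds the markers *NimB1*, *NimC1* and *lectin-28C*, and *CG33465* of the 24. These genes were already known to be high and count in the numbers below, and counts without them were not made. Of 27 assigned to hemocytes alone, 26 had a gene in the matrix and 21 could be tested. Of these 21, 15 were higher (71.4%, against 19.5% of all tested genes), 0 lower and 6 neither (median 2.08). With the size factors of DESeq2, 2 were lower. Hemocytes were the highest cluster for 11 of the 26. Beside *NimB1*, *NimC1* and *lectin-28C*, these included *CG33465* (5.63 ± 0.30) and *CG4259* (3.74 ± 0.32), *eater* (3.68 ± 0.34), a receptor for bacteria, *lectin-24Db* (3.55 ± 0.37) and *mfas* (2.49 ± 0.21). *CG33465* had 109.9 to 251 CPM in hemocytes (median 172), against 1.51 to 5.59 CPM in the other nuclei (median 2.73). *mfas* (midline fasciclin), an adhesion protein, had 542 to 1237 CPM in hemocytes (median 876), against 93.8 to 191 CPM in the other nuclei (median 137). Both were without overlap. The 2 glue genes *Sgs7* and *Sgs8* on this list, products of the salivary gland, were neither, at -1.22 and -1.21. Of 58 proteins assigned to hemocytes and other tissues, 55 could be tested. Of these 55, 24 were higher (43.6%, against 19.5% of all tested genes), 17 lower (30.9%, against 32.4%) and 14 neither (median 0.12). Without the mixed clusters 25 of 52 were higher and 10 lower. *Ten-m* (2.53 ± 0.17), a teneurin, and *CG5888* (3.90 ± 0.19) were among the higher, with 1469 to 1937 CPM and 441 to 844 CPM in hemocytes. This median was -0.08 with the size factors of DESeq2.

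Taken over their lists, markers of the other blood cell types did not share a direction. Each list had only 3 or 4 tested genes, and of all tested genes 19.5% were higher and 32.4% lower. Of the 4 crystal cell genes none was higher, with *PPO1* at 0.13 ± 0.62, *PPO2* at -0.07 ± 0.52, *lz* (lozenge, the factor of crystal cell fate) at -0.37 ± 0.58 and *peb* lower at -1.26 ± 0.38. These levels came from few nuclei. *lz* was found in 8 hemocyte nuclei, and 5 nuclei held 90.9% of its 50.9 UMIs. For *PPO1*, 5 nuclei held 74.3% of the UMIs. Exactly 5 hemocyte nuclei, from 4 libraries, had at least 3 corrected counts each of *lz*, *PPO1* and *PPO2*, and all 5 also had 1 or more of the 6 markers. The same rule, set after the values were seen, found 14 nuclei in enterocyte cluster 3 and 3 in all further clusters. At 0.5 corrected counts of each gene it found 5 nuclei in cluster 7 and 30 in cluster 3. These 30 came from 6 libraries and had 0.0720% of their UMIs in 5 enterocyte genes, against 0.738% for cluster 3 as a whole, and 12 of them held *srp*, which 5.45% of cluster 3 nuclei did.

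Of 3 tested lamellocyte genes 1 was higher, 1 lower and 1 neither, and without the mixed clusters both of the 2 that could be tested were higher. *atilla* was lower, at most 13.9 CPM in hemocytes and 27.4 to 203 CPM in the other nuclei (-4.52 ± 0.61), and *PPO3*, *ItgaPS4* and *ItgaPS5* were found in 2, 3 and 1 hemocyte nuclei. *msn* was higher (0.95 ± 0.15). *cher* was neither. Of the lymph gland progenitor genes *Tep4* was higher, *shg* lower (-1.88 ± 0.28) and *dome* neither (-0.51 ± 0.23), with a median of -0.51, and *dome* was lower with the size factors of DESeq2. Of genes that mark the posterior signalling centre of the lymph gland, *kn* was higher, with 84.6 to 540 CPM in hemocytes (median 321), against 36.2 to 85.0 CPM in the other nuclei (median 48.4; 2.47 ± 0.33), while *Antp* (-1.29 ± 0.42) and *hh* (-2.58 ± 0.35) were lower. The groups of *kn* overlapped by a narrow margin. It was found in 129 hemocyte nuclei (9.39%), with a mean of 4.69 UMIs where found. Only 8 hemocyte nuclei, from 4 libraries, had at least 3 counts of both *kn* and *Antp*, of which 1 held *srp* and 0 held *hh*. For *Antp*, 5 nuclei held 47.5% of the UMIs.

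RNA of other tissues was low but present. The 4 fat body genes, the 4 cuticle genes, the 5 muscle genes and the 5 neuronal genes of the marker lists were all lower in hemocytes, but without the mixed clusters 3 of the 4 cuticle genes and 3 of the 5 muscle genes were. Among all tested genes 32.4% were lower and 19.5% higher, or 27.3% and 18.9% without the mixed clusters. Fat body genes made up 0.0980 to 0.306% of hemocyte UMIs per library, against 0.222 to 2.92% of the UMIs of other nuclei, and cuticle genes 0.101 to 0.314% against 1.55 to 16.7%. Enterocyte and glue genes were neither higher nor lower in any tested case (4 and 6 genes), except that 2 glue genes were lower with the size factors of DESeq2. They made up 0.0400 to 0.0865% and 0.0781 to 0.169% of hemocyte UMIs, against 0.0197 to 0.210% and 0.0288 to 0.726% for the other nuclei. Of 3 tested glial genes 1 was lower (33.3%, near the share of all tested genes) and 2 were neither, and the 2 tested heart genes were lower. Of 3 tested nephrocyte genes 1 was higher and 2 were lower, and without the mixed clusters 0 were higher. No UMI in hemocytes was found for 1 of 5 glial genes, the factor *repo*, and 1 of 5 heart genes, the factor *tin*. For *repo*, 0 of 1374 nuclei allows a share of nuclei with a UMI of up to 0.218%, which does not limit the share that express it. How much of these low levels is free RNA was not tested.

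The 6 genes with the smallest fold changes included 3 larval cuticle genes. *Lcp1*, a larval cuticle protein, had 315 to 1249.7 CPM in hemocytes (median 589), against 6138 to 70325 CPM in the other nuclei (median 30027; -6.04 ± 0.49). *CG6426* had 0 CPM in 7 hemocyte libraries and 6.11 CPM in the other, against 25.7 to 298 CPM in the other nuclei. Its fitted value of -8.23 ± 0.89 rests on the 1 library with counts, library 6, and was -11.68 without it. *CG9757* (-6.55 ± 0.71, or -7.46 without library 7), *Lcp4* (-6.03 ± 0.47), *Lcp3* (-5.99 ± 0.51) and *CG15308* (-5.91 ± 0.57) completed the 6, and none overlapped between the groups. The folds were much smaller without the mixed clusters. There *Lcp1* was at -1.45, *Lcp4* at -1.55 and *Lcp3* at -1.53, *CG9757* (-2.11) and *CG15308* (-1.23) lost their calls and *CG6426* had too few counts to be tested.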

How the data were processed

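Nuclei of 8 pools of whole larvae were sequenced as droplet libraries. Per the submitters' processing notes, Cell Ranger 7.1.0 and build BDGP6 were used. The deposited expected counts are UMIs per gene and nucleus from which the authors had subtracted ambient RNA (DecontX). They then discarded nuclei below 50 genes or 80 UMIs and likely doublets (DoubletFinder, assumed rate 5%). The authors clustered these counts after joining the libraries (Harmony, Leiden) and named the clusters. No doublet caller was run again. A library's number is the one that ends its barcodes, which was not paired with a sample title.

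Corrected counts were summed per library and cluster, rounded and tested with edgeR 4.0.16 (quasi-likelihood, TMM, filterByExpr, R 4.3.3), with Benjamini-Hochberg adjustment over all genes tested. DESeq2 1.42.0 gave alternatives. The standard error of the fit was worked out as the absolute log2 fold change divided by the square root of the F statistic. The scripts were tested on simulated data. A nucleus holds a gene at any corrected count above 0, which can be a small fraction, and sums below 0.001 CPM are given as 0. The comparison with fat body needed at least 20 nuclei per sum. Libraries pair the sums, since both come from the same larvae, but deviations of the same library correlated by only -0.026 to 0.122 against all other nuclei, so the block for library was kept as an alternative.

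Genes named were the 6 markers, the 24 with the largest and 6 with the smallest log2 fold change among adjusted p below 0.05 (higher in at least 7, or lower in 8, of 8 libraries, and found in at least 5% of hemocytes, or of other nuclei), and the 2 highest and 2 lowest of each list. Further genes were chosen after their values were seen. The members and lists were chosen with earlier results of these data known. Positions and overlaps are from the BDGP6.54 annotation, matched by symbol for 12066 of 12610 genes and by synonym for 518. Reads of overlapping genes may be shared, since the counting of strand is not given in the sources used here. Differences between libraries may be technical or biological, and p-values set a difference between hemocytes and other nuclei against that spread only. Sequences were not used here.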

Additional observations from a re-analysis of the deposited data

Results flagged for a closer look

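Of 86 values compared over the 8 libraries (the share and depth of hemocytes and the levels of named genes in them), 8 had 1 library far from the others by Dixon's criterion at the 95% level, where chance gives about 1 in 20. In library 6 these were *lncRNA:CR45082* at 184 CPM (46.1 to 108 CPM in the other 7 libraries), *CG6426* at 6.11 CPM (0 CPM in the others) and *Lsd-1* at 44.7 CPM (5.13 to 20.7 CPM). In library 7 they were *Lcp1* at 1250 CPM (315 to 730.0 CPM) and *trol* at 648 CPM (449 to 538 CPM). In library 3 they were *Drs* at 81.4 CPM (1.36 to 35.1 CPM) and *GNBP3* at 21.8 CPM (0 to 8.63 CPM), and in library 1 *klu* at 189.7 CPM (23.8 to 80.8 CPM). Cuticle genes made up 0.314% of hemocyte UMIs in library 7, the highest share of the 8. *Egfr*, named after its values were seen, had 1949 CPM in library 8 against a median of 143 CPM over all 8, and 1 nucleus held 236 of its 493 UMIs.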

How the results depend on the processing

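The counts of called genes moved by less than 1.5 times under the alternatives run. The 1434 higher genes became 1069 with DESeq2 size factors, 1083 with the DESeq2 Wald test, 1687 with total counts and 1219 without a filter on low counts, and the 2384 lower genes became 2766, 2789, 2131 and 3206. With library as a replicate block they were 1395 and 2308, with 1348 higher genes shared. The block gave 1393 genes above fat body, as without it, and 488 above myoblasts and, of the named genes, changed only the call of *DptA* (-1.91, called). Without the mixed clusters 1122 genes were higher and 1620 lower, and 1012 of the 1122 were among the 1434. Leaving out 1 library gave 1308 to 1439 higher and 2187 to 2495 lower genes, 1312 to 1404 above fat body, 465 to 503 above myoblasts and a share of 4.27 to 4.74% of nuclei. The share of hemocytes with a marker was 86.6% at a corrected count of at least 0.5 and 70.5% after thinning. No called gene among those named changed sign. Of the uncalled ones, *trol* (-0.15) and *CycE* (-0.05) did with DESeq2 size factors, among other settings, and *RnrL* without library 3 (0.0088). Calls changed for *Tep2* (-0.73) and *Vha44* (0.52) with DESeq2 size factors and for *Idgf6* (-0.63) without mixed clusters, and *Tep2* was called without library 2 (-0.73). The list median of lysosomal genes was 0.15 with total counts, where that of clotting genes was -0.02. Depth limits rare genes, since 1 UMI in the smallest hemocyte sum is several CPM.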

Other observations

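The male-specific noncoding RNAs *roX1* and *roX2* were found together or singly, at 0.5 corrected counts or more, in 71.6% ± 5.22 of hemocyte nuclei per library, against 42.6% ± 11.2 of the other nuclei (SD, n = 8 libraries each). Each pool held as many males as females, and the part of depth and of free RNA in this difference was not tested.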
